A study of Mus musculus with 15 samples.

Results

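Gdf15, Fgf21, Angptl6, Angptl4, Adm2 and Stc2, which encode 6 secreted proteins linked to nutrient and endoplasmic reticulum (ER) stress, were followed by RNA-seq through cells and tumors in which glutamine (Gln) use was blocked or Gln was withheld. The 6 genes were picked by name, with values of these same comparisons in view, out of the 55291 genes in each deposited table. HY19636 is a murine pancreatic ductal adenocarcinoma (PDAC) line derived from tumors of C57BL/6 mice. These mice were heterozygous at p53 (p53 L/+) and carried Ptf1a-Cre, which is active in pancreatic cells. All 15 samples, in 5 groups of 3, came from this single line. The cells were grown in DMEM with 10% FBS and either left as controls (CNT), given the Gln antagonist DON at 25 µM for 24 h, or kept without Gln (Gln-free) for 24 h. The tumors had grown from HY19636 cells in the pancreata of B6J mice aged 8 to 10 weeks that received vehicle (VEH) or the DON prodrug DRP-104 in daily doses of 3 mg per kg, over 2 cycles of 5 days on and 2 days off from day 7, with collection on day 21. Doses and times of DON and DRP-104 differed, so their effects were only set side by side. The tumors also hold cells of the host, and in bulk RNA fewer cells of a type cannot be told apart from less RNA per cell. No label says that the cultures of a group were separate, so the p-values measure the spread between these samples, which may be technical.

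Library depth ranged from 25.2 to 48.2 M reads in the cultures and from 16.3 to 20.7 M in the tumor table of normalized counts. A second tumor table gives FPKM (fragments per kilobase of gene and M fragments), with 18.4 to 23.0 M fragments per column. Its columns are other libraries than those of the normalized counts, since the highest correlation of deviations between any pair of columns was 0.457 over 10187 genes. The control columns of both culture tables carry the heading of the vehicle samples, and they were read as the control cultures because the tables set them against the treated cultures and hold the same reads for 55291 of 55291 genes. In all 9 culture libraries the 6 islet markers were at 0, as were the macrophage markers Adgre1 and Lyz2, while the 5 epithelial markers summed to between 323326 and 411649 normalized counts in control cells, 107081 and 115027 after DON and 134929 and 148353 without Gln. Some markers of other cells differed between the groups: the 6 macrophage markers summed to 788 to 835 after DON against 55.0 to 87.7 in control cells, nearly all of it Cd68, and the 7 fibroblast markers summed to 1076 to 1123 without Gln against 471 to 630, nearly all of it Pdgfra, with Col1a2 and Dcn at 0. Their part in the values below was not tested.

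GDF15, FGF21 and ANGPTL6 are hormone-like proteins by which stressed tissue acts on whole-body metabolism. When amino acids run short or proteins misfold in the ER, eIF2α kinases slow translation, the transcription factor ATF4 accumulates, and ATF4 with C/EBP partners acts on genes that carry composite C/EBP-ATF elements. GDF15 signals through GFRAL and RET in the hindbrain and lowers food intake, FGF21 needs an FGF receptor together with β-Klotho (Klb), and ANGPTL4 inhibits lipoprotein lipase. ADM2, also called intermedin, acts on the calcitonin receptor-like receptor Calcrl paired with a Ramp protein, and STC2 is a secreted glycoprotein known for its induction by ER stress.

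The sequence before the transcription start was read from RefSeq promoter windows (GRCm38.p6, 250 bases before to 50 after each start) for 5 of the 6 genes, with 2 windows for Gdf15 and none for Angptl4. The windows were searched on both strands for the composite element core TGATGNAA, the full cAMP response element TGACGTCA and the hypoxia response core ACGTG, which on both strands together forms an E-box. The composite core was found once, in Fgf21, 139 bases before the start on the reverse strand, and 3.97% of all 32851 promoter windows hold it. No window of the 5 genes held the full cAMP response element, which 1.79% of all windows hold. ACGTG lay in Fgf21, 49 bases before the start, and in 1 of the 2 Gdf15 windows, 82 bases before it, on both strands at each place, against 19.62% of all windows. The upstream stretches of 4 genes are shown 5′ to 3′ on the strand of the gene, because Fgf21 holds the composite core and Gdf15, Angptl6 and Adm2 are the genes with the highest folds in treated cells. Capitals mark the composite core and the overlapping ACGTG matches. Fgf21 is chr7:45615491-45615740 (minus strand), Gdf15 is its window with the match, chr8:70632096-70632345 (minus), Angptl6 is chr9:20879711-20879960 (minus) and Adm2 is chr15:89322470-89322719 (plus). The Gdf15 stretch shown lies inside the annotated gene (chr8:70629393-70632456), before an internal start. The other Gdf15 window, before the gene's own start (chr8:70632457-70632706), held none of the searched motifs and is not shown.
Fgf21: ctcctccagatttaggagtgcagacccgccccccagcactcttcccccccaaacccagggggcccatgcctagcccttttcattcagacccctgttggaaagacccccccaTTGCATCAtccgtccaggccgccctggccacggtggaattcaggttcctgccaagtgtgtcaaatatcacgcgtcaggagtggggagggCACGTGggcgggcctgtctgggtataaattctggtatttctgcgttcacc
Gdf15: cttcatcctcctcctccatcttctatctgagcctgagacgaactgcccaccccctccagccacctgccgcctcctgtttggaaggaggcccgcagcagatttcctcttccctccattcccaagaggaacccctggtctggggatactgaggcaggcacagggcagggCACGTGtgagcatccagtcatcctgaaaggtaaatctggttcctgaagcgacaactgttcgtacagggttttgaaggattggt
Angptl6: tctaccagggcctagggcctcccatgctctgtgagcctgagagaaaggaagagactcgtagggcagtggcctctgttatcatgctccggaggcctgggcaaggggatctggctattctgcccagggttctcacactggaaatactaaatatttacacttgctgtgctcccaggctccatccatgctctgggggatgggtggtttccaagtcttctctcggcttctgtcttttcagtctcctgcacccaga
Adm2: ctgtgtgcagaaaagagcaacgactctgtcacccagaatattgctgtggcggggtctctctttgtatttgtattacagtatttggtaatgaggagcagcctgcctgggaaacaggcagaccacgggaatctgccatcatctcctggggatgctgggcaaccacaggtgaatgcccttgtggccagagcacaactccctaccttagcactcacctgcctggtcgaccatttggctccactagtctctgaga
A match of letters is a description of the window and not a binding site.

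In cultured cells 4 of the 6 genes were higher after DON and without Gln, Angptl4 was lower, and Fgf21 was at or near 0. The DON and Gln-free libraries helped choose the genes, so values of the 6 genes in all culture comparisons, DON against Gln-free cells included, are a description with no test. For 5 of the 6 genes the values of treated and control libraries did not overlap in either contrast, beside 71.9% of 13556 genes in DON and 73.6% of 13390 genes in Gln-free cells. The shares of all genes that passed the test were likewise high, with 33.3% higher and 34.7% lower after DON, and 34.5% higher and 34.9% lower without Gln. Both contrasts use the same 3 control libraries. In DON against Gln-free cells, which holds no control library, 33.8% of 13383 genes were higher and 35% lower after DON, and 72.2% did not overlap between the groups. For 4 of the 6 genes DON and Gln-free libraries did not overlap, with 3 higher after DON and 1 lower. Log2 fold changes below are on the log2(value + 1) scale with their SE, and adjusted p-values are from limma over all genes.

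Gdf15 (chr8:70629393-70632456, minus strand, GRCm38), a distant TGF-β superfamily member, was counted in the DON table at 84.3, 73.7 and 59.1 normalized counts in control cells and at 495, 350 and 423 in DON cells. Every DON library was above every control library, and the means differed 5.84-fold (log2 2.53, SE 0.20). In the Gln-free table the control libraries stood at 79.4, 69.6 and 57.0 and the Gln-free libraries at 204, 205 and 207, a 2.99-fold difference (log2 1.58, SE 0.19). The Gln-free cultures lay close together, whereas the DON cultures spread more. On 1 scale for all cultures, DON cells held 486, 345 and 416 and Gln-free cells 206, 208 and 210. Gdf15 was 2.00-fold higher after DON than without Gln (log2 0.98, SE 0.14), higher in 3 of 3 DON libraries.

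Fgf21 (chr7:45613907-45615490, minus strand), an endocrine FGF, had no read in the 3 control and the 3 Gln-free libraries. In DON cells it had 2 reads in library 2 and 0 in the others. A count of 0 allows up to 3 reads, which in these cultures is a level of 0.0670 to 0.128 reads per kilobase and M reads, counting error only. Most low read numbers in these cultures were even, so reads may not be independent and the true floor may be higher. No fold was formed, since all groups were at or under that floor, and a difference was not detectable at this depth.

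Angptl6 (chr9:20873809-20879727, minus strand), a secreted angiopoietin-like protein linked to energy expenditure, had the highest fold of the 6 genes. Control cells held 27.7, 47.5 and 30.5 normalized counts and DON cells 2496, 2859 and 2325, a 72.7-fold difference (log2 6.18, SE 0.19). That log2 value was rank 2 from the highest among the 13556 genes tested. Without Gln the libraries held 523, 464 and 622 against 26.1, 44.8 and 29.4 in controls, a 16.03-fold difference (log2 3.99, SE 0.22) and rank 26 of 13390. Neither treated group came near the control libraries. The direct comparison put DON cells at 2451, 2818 and 2286 and Gln-free cells at 529, 469 and 629, 4.64-fold higher after DON (log2 2.22, SE 0.11). Its end overlaps the antiviral gene Shfl (listed as A230050P20Rik in the FPKM table) on the opposite strand over 500 bases, and the use of strand is not given in the sources used here. Shfl itself stood at 0 in the 3 control libraries and at 5.97, 11.1 and 10.1 after DON, far below Angptl6.

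Angptl4 (chr17:33773750-33781575, minus strand) went the other way. It was abundant in control cells, at 6729, 7772 and 5567 normalized counts, and stood at 220, 97.9 and 203 after DON, 38.5-fold lower (log2 -5.33, SE 0.23). That log2 value was rank 25 from the lowest among the 13556 genes tested. Gln-free cells kept more of it, with 2735, 2446 and 3427 against 6342, 7341 and 5369 in controls, 2.21-fold lower (log2 -1.15, SE 0.13). In the direct comparison DON cells held 216, 96.5 and 200 and Gln-free cells 2767, 2475 and 3468. Angptl4 was 17.0-fold lower after DON than without Gln (log2 -4.15, SE 0.23), lower in 3 of 3 DON libraries.

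Adm2 (chr15:89322972-89324728, plus strand) differed from control to nearly the same degree under both treatments. The DON table lists 211, 259 and 177 normalized counts in control cells and 1019, 995 and 958 in DON cells, 4.60-fold more (log2 2.21, SE 0.15). Gln-free cells held 896, 861 and 760 beside 199, 244 and 170 in controls, 4.10-fold more (log2 2.04, SE 0.15). Set against each other, DON cells (1001, 980 and 942) were above Gln-free cells (906, 871 and 769) in 3 of 3 libraries, by 1.15-fold (log2 0.20, SE 0.09).

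Stc2 (chr11:31357307-31370074, minus strand) moved least. Control cells held 948, 854 and 783 normalized counts and DON cells 1033, 1143 and 1017, 1.23-fold more (log2 0.31, SE 0.11). Without Gln the values were 1124, 1069 and 914 against 894, 807 and 755, 1.26-fold more (log2 0.34, SE 0.11). DON and Gln-free cells overlapped, at 1014, 1127 and 999 and at 1137, 1082 and 925, and the difference on the log2 scale was 0.00 (SE 0.09).

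**Figure D1:**
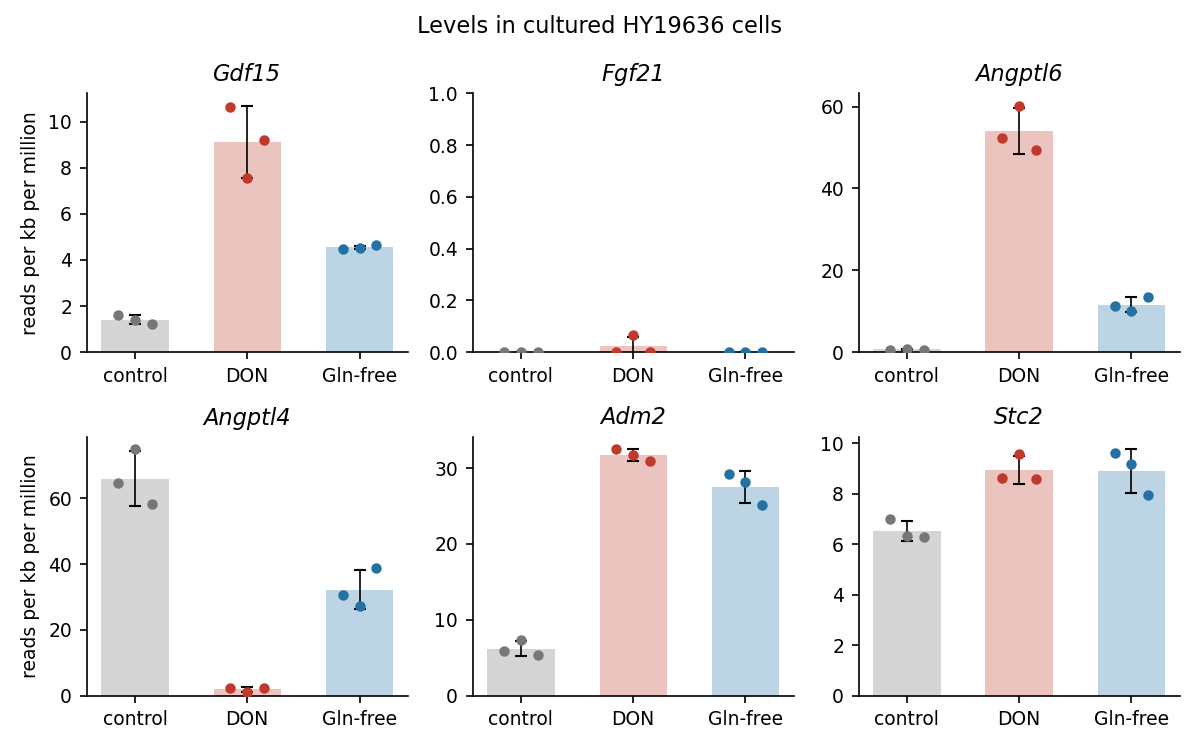
Levels of the 6 genes in the 9 culture libraries, in reads per kilobase of gene length and M reads; points are libraries, bars are means of 3 and error bars are SD. Gdf15, Angptl6 and Adm2 sit well above control in both treated groups, Angptl4 drops from 58.3 to 74.8 in control cells to 1.07 to 2.39 in DON cells, and Fgf21 stays at or near 0.

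**Figure D2:**
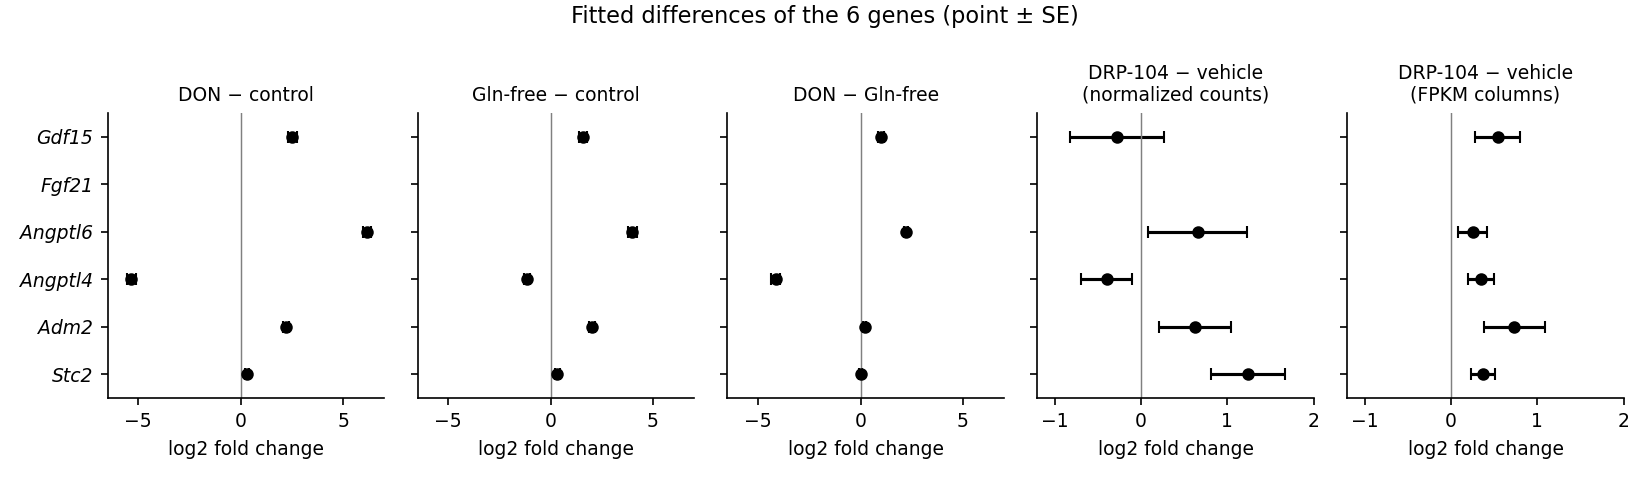
Fitted log2 fold changes of the 6 genes in 5 comparisons, with bars of 1 SE; the 3 culture panels share 1 scale and the 2 tumor panels another. Fgf21 was below the filter in every panel, and Angptl4 lies left of 0 in all panels but the FPKM columns, where it is at 0.34.

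Per gene length, the make-up of the group changed with treatment. Angptl4 ranked first in control cells at 65.9 ± 8.35 reads per kilobase and M reads (SD, n = 3), ahead of Stc2 (6.53 ± 0.396) and Adm2 (6.21 ± 0.966), whose libraries overlap, then Gdf15 (1.41 ± 0.188), Angptl6 (0.671 ± 0.190) and Fgf21 at 0. After DON the order of levels began with Angptl6 (54.0 ± 5.54) and Adm2 (31.7 ± 0.789), followed by Gdf15 (9.13 ± 1.56) and Stc2 (8.92 ± 0.553), which overlap, and Angptl4 (1.90 ± 0.724). Gln-free cells had Angptl4 (32.2 ± 5.92) and Adm2 (27.5 ± 2.10) at overlapping levels, then Angptl6 (11.6 ± 1.82), Stc2 (8.89 ± 0.863) and Gdf15 (4.55 ± 0.0769). Put as shares of the 6 genes' summed length-scaled reads, Angptl4 made up 81.1% to 82.5% in control libraries, 34.5% to 43.0% in Gln-free and 0.969% to 2.24% in DON libraries. Angptl6 took 0.644% to 0.973%, 12.6% to 15.1% and 49.2% to 54.6% of that sum, respectively.

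**Figure D3:**
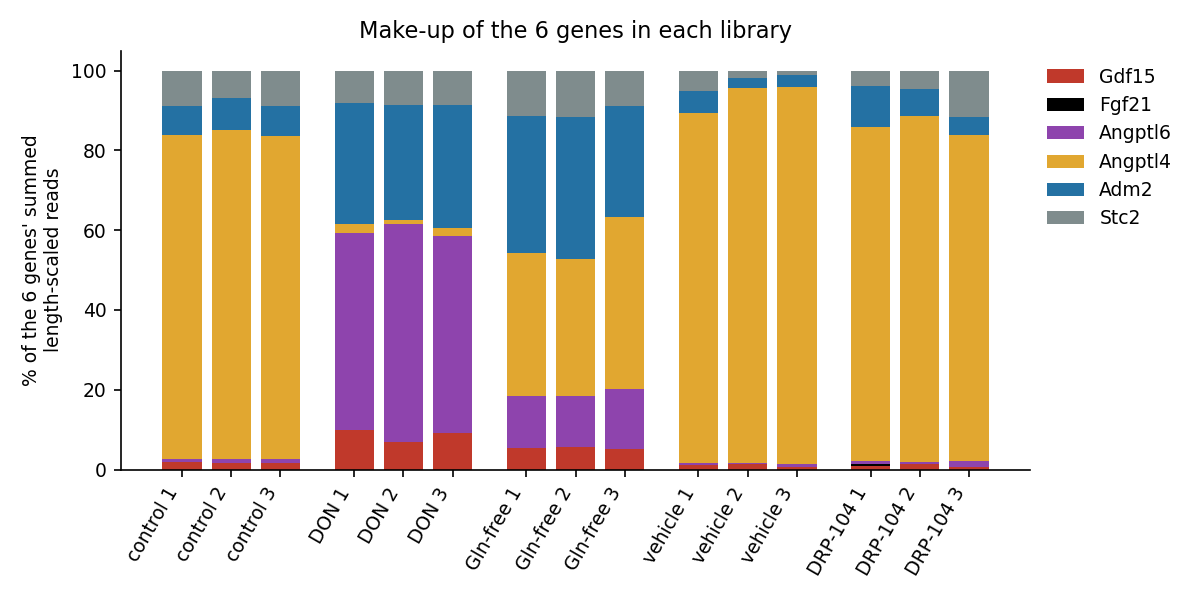
Share of each gene in the summed length-scaled reads of the 6 genes, in percent, for each of the 15 libraries. Angptl4 fills most of every control and tumor library, from 81.1% upward, and Angptl6 holds the largest share in the 3 DON libraries.

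The genes most like each of the 5 detected members across the 9 culture libraries were found by Pearson r of log2(value + 1) among 13514 genes; the points fall into 3 groups, so r mainly reflects the group means and has no p. For Gdf15 these were Tom1 (0.994), Hmox1, the heme-degrading stress enzyme (0.992), and Dynap (0.992). Angptl6 ran closest to Igfbp3, a binding protein of insulin-like growth factors (0.998), the metal transporter Slc39a14 (0.996) and Ndrg1 (0.995). Adm2 ran with Akap8l (0.997), Atf5, a transcription factor of the integrated stress response (0.996), and the cationic amino acid transporter Slc7a1 (0.996). Angptl4 was followed by Proser2 (0.998), Synpo (0.997) and Ier3 (0.997), and Stc2 by Spcs2, a signal peptidase subunit (0.974), Phf5a (0.968) and Enoph1 (0.957). As many as 480 genes had r over 0.95 with Angptl4 and 404 with Angptl6, but only 5 with Stc2.

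Of the 13 receptor and co-receptor genes for these ligands, Gfral, Fgfr2, Kl and Calcr were at 0 in every culture library. Among the 9 tested, 2 rose and 2 fell after DON, and 1 rose and 5 fell without Gln (limma adjusted p under 0.05), beside 33.3% risen and 34.7% fallen of all genes after DON and 34.5% and 34.9% without Gln. Of the genes named here and below, Fgfr4, Klb, Ramp2, Fgf1, Lpl, Lipg and Adm had a group mean under 10 in at least 1 comparison and entered the test there through the higher group. The signaling partner of GFRAL, Ret, rose from 122 ± 18.6 to 186 ± 28.2 normalized counts after DON (log2 0.61, adjusted p = 0.0142, n = 3) but fell to 64.1 ± 10.6 from 116 ± 16.4 without Gln (log2 -0.84, adjusted p = 0.00444). Its rise after DON was lost without DON library 1 (adjusted p = 0.0765). Fgfr1, the main receptor of FGF21, likewise rose after DON (log2 1.32, adjusted p = 1.42e-04) and fell without Gln (log2 -1.21, adjusted p = 0.00231), and it was higher in DON than in Gln-free cells by 2.56 (adjusted p = 1.19e-07). β-Klotho was low, at 25.5 ± 11.3 in control and 19.3 ± 5.62 in DON cells (log2 -0.31, adjusted p = 0.566), and fell without Gln from 24.2 ± 10.8 to 5.76 ± 3.48 (log2 -1.94, adjusted p = 0.0116). That fall was lost without control library 1 (adjusted p = 0.0544). Klb was higher in DON than in Gln-free cells (log2 1.67, adjusted p = 0.0193), a call lost without DON library 1 (0.0632), DON library 3 (0.0726) or Gln-free library 1 (0.0674). Fgfr4 fell steeply in both, from 158 ± 13.7 to 7.44 ± 5.04 after DON (log2 -4.50) and from 150 ± 14.5 to 5.45 ± 3.06 without Gln (log2 -4.68). On the side of ADM2, Ramp1 fell in both (log2 -2.45 and -4.21), Ramp3 rose without Gln from 59.1 ± 23.2 to 322 ± 25.8 (log2 2.51, adjusted p = 3.23e-06), and Calcrl, at 121 to 148 on average in the DON table, and Ramp2 and Fgfr3 did not pass in either. Ramp2 passed without Gln once Gln-free library 1 was left out (log2 -1.94, adjusted p = 0.0356). Ramp3 at 96.7 ± 25.3 after DON missed the threshold (log2 0.68, adjusted p = 0.0783), which it passed without DON library 3 (0.0439) or control library 2 (0.0339), and was lower than in Gln-free cells by 1.80 on the log2 scale (adjusted p = 9.20e-07).

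Of 21 further FGF genes 5 were tested after DON and 4 fell, beside 34.7% of all genes, while 7 were tested without Gln, where 3 fell and 1 rose, beside 34.9% and 34.5%. The gene that rose averaged 2.04 in control cells and 32.0 without Gln, so it entered the test only through the higher group. Fgf1 fell from 804 ± 77.5 to 6.08 ± 0.597 after DON (log2 -6.83, adjusted p = 2.73e-11) and Fgf2 from 762 ± 175 to 80.9 ± 47.7 (log2 -3.45). Without Gln the log2 values were -4.36 and -2.18. Among 5 other angiopoietin-like genes 2 were tested. Angptl8, which takes part in the control of lipoprotein lipase, rose from 54.6 ± 8.25 to 572 ± 89.5 after DON (log2 3.36, adjusted p = 2.36e-09) and from 52.0 ± 8.50 to 1127 ± 47.1 without Gln (log2 4.42, adjusted p = 2.33e-10), and was lower in DON than in Gln-free cells (log2 -1.03, adjusted p = 9.72e-07). Angptl2 rose after DON (log2 0.46) and fell without Gln (log2 -1.18). Around ANGPTL4's target, Lpl and Lipg fell after DON (log2 -1.92 and -4.40), whereas Lmf1, needed for lipase folding, rose (log2 0.90, adjusted p = 1.76e-05). Only Lipg of these 3 passed without Gln, and it fell (log2 -1.43).

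Of 30 TGF-β superfamily ligands other than Gdf15, 11 were tested after DON, with 2 risen and 6 fallen, and 13 without Gln, with 4 risen and 4 fallen, beside 33.3% and 34.7% of all genes after DON and 34.5% and 34.9% without Gln. A ligand among the 4 risen without Gln averaged 1.21 in control cells and 26.8 without Gln, so it entered the test only through the higher group. Inhba, the activin A subunit, rose in both (log2 1.38 and 2.52) and Tgfb3 and Gdf11 fell in both (log2 -2.46 and -1.87 after DON, -1.89 and -0.99 without Gln). Bmp2 fell after DON (log2 -0.997, adjusted p = 0.00373) and rose without Gln (log2 1.65, adjusted p = 9.76e-06). In the direct comparison 9 of the 12 ligands tested were lower in DON cells and none was higher. Of all genes 35% were lower and 33.8% higher there. A ligand among these 9 averaged 9.91 after DON and 23.95 without Gln, so it entered the test only through the higher group. Another was close to the threshold (limma adjusted p = 0.0471). Tgfb3 was also among the 9, and its call was lost by DESeq2 (adjusted p = 0.0527) and without DON library 1 (limma adjusted p = 0.120). Stc1, the paralog of Stc2, fell in both (log2 -4.07 and -2.47), and Adm fell without Gln (log2 -2.33) but stood at 0.05 after DON. Among the 4 processing enzymes tested, Furin and Pam, which amidates peptide hormones, fell in both contrasts, Pcsk6 fell after DON (log2 -1.38), and Pcsk7 did not pass.

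Of the 15 integrated stress response genes, 9 rose and 4 fell after DON and 10 rose and 2 fell without Gln, with list medians of 0.77 and 1.27 beside 0.02 and 0.01 over all genes. The shares of all genes that rose and fell were 33.3% and 34.7% after DON and 34.5% and 34.9% without Gln, for this list and the others of this paragraph. Ddit3 (CHOP) rose from 471 ± 15.6 to 11803 ± 1387 after DON (log2 4.64, adjusted p = 1.96e-12) and from 448 ± 14.4 to 10025 ± 669 without Gln (log2 4.48), and Trib3 rose by log2 3.67 and 3.09. Atf3 and Atf5 also rose in both, by 3.34 and 3.04 after DON and by 3.30 and 2.82 without Gln. The kinase gene Eif2ak4 (GCN2) fell in both (log2 -1.51 and -1.09), Eif2ak1 fell in both (log2 -0.51 and -0.70) and Eif2ak2 fell after DON (log2 -1.33) and stood at -0.16 without Gln (adjusted p = 0.398). Of 12 factors known to act on Angptl4 or Fgf21, 11 were tested after DON, with 3 higher and 6 lower, and 10 without Gln, with 4 each way. Epas1 (HIF-2α) fell from 311 ± 6.08 to 22.0 ± 10.9 after DON (log2 -3.91) and from 296 ± 8.57 to 28.7 ± 1.66 without Gln (log2 -3.32), Pparg fell in both (log2 -1.27 and -0.91), Tfeb fell in both (log2 -1.87 and -1.28), and the glucocorticoid receptor Nr3c1 rose in both (log2 1.01 and 2.41), as did Trp53 (log2 1.18 and 1.15). Ppard fell after DON (log2 -0.65, limma adjusted p = 6.86e-05) and rose without Gln (log2 0.24, adjusted p = 0.0311). Hif1a stood at 0.02 and 0.25 and did not pass in either, but it passed without Gln once control library 3 was left out (log2 0.39, adjusted p = 8.57e-05). All 5 genes of a further list drawn up around ER stress passed in both contrasts, beside the shares above, in which most genes passed. Manf, Cdnf, Creld2 and Sdf2l1 were higher and Creld1 was lower. Of 15 other metabolic hormones 4 were tested after DON, where Nampt rose (log2 0.51) and Metrn and Metrnl fell (log2 -0.60 and -0.73), and 3 without Gln, where Metrn fell (log2 -0.81).

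**Figure D4:**
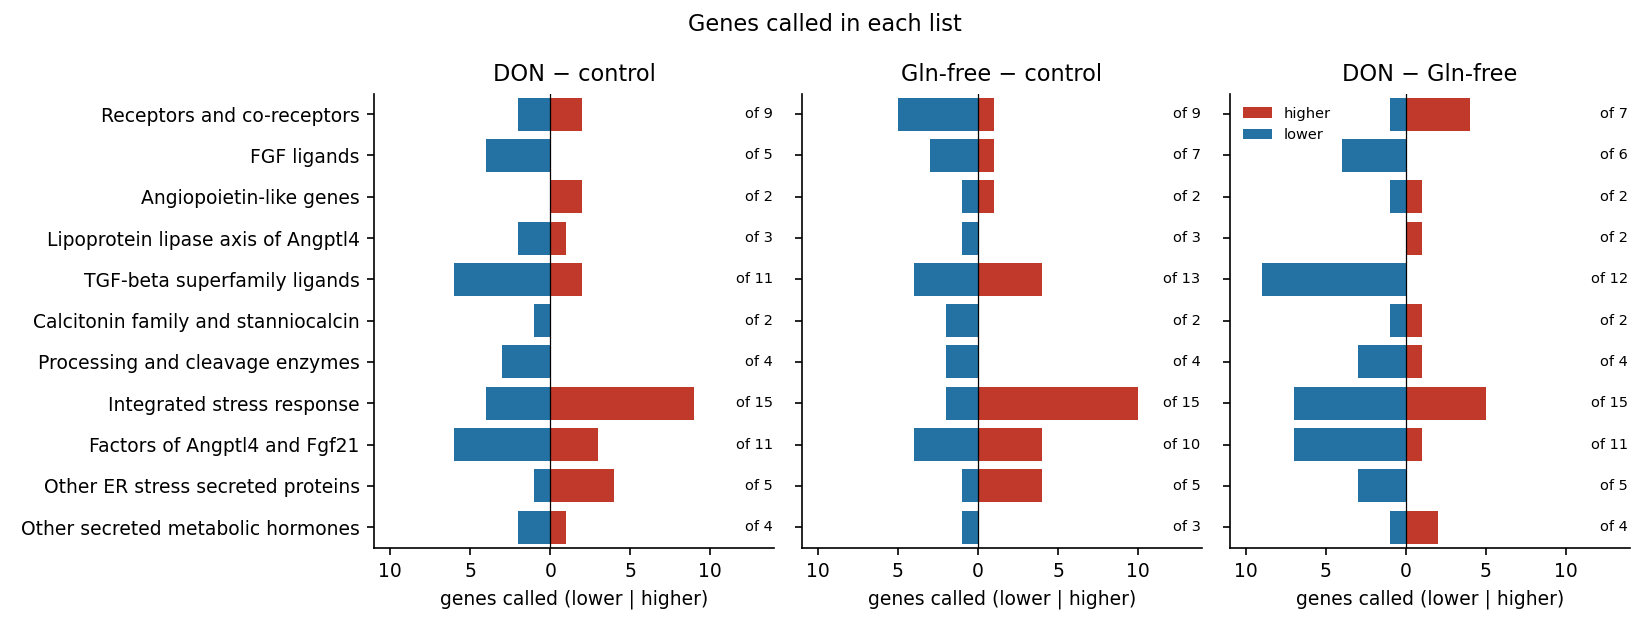
Genes called higher (right) and lower (left) at an adjusted p under 0.05 in each of 11 lists of related genes, for the 3 culture comparisons; the number tested stands at the right edge. The integrated stress response list has the most genes called higher in both comparisons with control, 9 and 10 of 15.

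In the tumors Stc2 was higher in every DRP-104 tumor than in every vehicle tumor of the normalized counts, and the other genes overlapped between the groups. These values are a description with no test, since this contrast was also used to choose the genes. No gene of the whole table passed there by limma, 0% of 15454 tested and 775 with an unadjusted p under 0.05, and 0 passed by edgeR and 56 by DESeq2. Values of 10.6% of the genes did not overlap between the groups. Among the 6 genes this held for 1, Stc2. The vehicle tumors held 322, 221 and 114 normalized counts of Stc2 and the DRP-104 tumors 351, 397 and 771, 2.31-fold more (log2 1.24, SE 0.43). The highest Stc2 value was in DRP-104 tumor 3, where the 6 T-cell markers summed to 1137, against 13.8 to 72.4 in the other 5 tumors, and their part in the result was not tested. Leaving out any 1 library gave log2 values for Stc2 of 0.83 to 1.58.

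Adm2 stood at 87.6, 89.1 and 90.5 in vehicle and at 237, 147 and 74.5 in DRP-104 tumors, so 2 tumors were above and 1 below every vehicle tumor (log2 0.62, SE 0.42). Angptl6 was near its control culture level per length, with 11.6, 12.1 and 25.0 in vehicle and 20.3, 20.8 and 35.3 in DRP-104 tumors, which overlap (log2 0.66, SE 0.57). Gdf15 held 25.0, 63.1 and 29.8 in vehicle and 31.0, 45.0 and 18.6 in DRP-104 tumors (log2 -0.28, SE 0.55), and its sign turned to 0.05 without DRP-104 tumor 3 and to 0.12 without vehicle tumor 2. Angptl4 was again the most abundant of the 6 genes per length, with 4154, 9306 and 7944 normalized counts in vehicle and 5747, 5644 and 4127 in DRP-104 tumors (log2 -0.40, SE 0.30). The highest of these values, in vehicle tumor 2, stood beside the highest sum of the 6 adipocyte markers, 920 against 72.7 to 454 in the other tumors. Vehicle tumor 3, at 7944, had an adipocyte sum of only 123. In the FPKM columns the highest adipocyte sum, 178 in vehicle column 2, stood beside Angptl4 at 87.9 FPKM, among its lower values there. Angptl4 is known to be expressed in adipocytes, and the part of these cells was not tested. Fibroblast markers summed to 39031 to 82817 in vehicle and 18469 to 32268 in DRP-104 tumors, and endothelial markers to 1800 to 2046 and 1122 to 1560, without overlap in either case. The FPKM columns did not show this. There fibroblast markers summed to 740 to 1215 in vehicle and 1001 to 2958 in DRP-104 columns, and endothelial markers to 34.1 to 43.2 and 38.3 to 49.2, with overlap in both cases. Their part in the values of the 6 genes was not tested either.

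Fgf21 was read 11 times in DRP-104 tumor 1, 0 times in the other DRP-104 tumors, and 1, 1 and 0 times in the vehicle tumors. The ratio of summed reads was 6.24, and it rests on 1 tumor. That tumor also had the highest sum of the 6 islet markers, 783 against 84.0 to 331 in the others, and the second highest of the 9 acinar markers, 1020 against 2813 in vehicle tumor 3. The part of these cells was not tested.

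The FPKM columns gave a test on libraries that the choice of genes did not use, but only their headings tie them to a group. Their line, mice, dose and day are not given, and whether they share tumors with the normalized counts is not known. No gene passed among 14212 tested, 0%, with 1081 at an unadjusted p under 0.05, and 19.3% of the genes did not overlap between the groups. On the whole fragments behind the FPKM values edgeR called 0 genes and DESeq2 201. Of the 6 genes Gdf15, Fgf21 and Stc2 did not overlap, all 3 higher in DRP-104 columns. Gdf15 and Stc2 did not pass the test, and Fgf21 was below its filter. Stc2 was at 3.87, 3.28 and 3.08 FPKM in vehicle and 4.43, 4.60 and 5.08 in DRP-104 columns (log2 of FPKM + 1 higher by 0.37, 95% interval 0.05 to 0.70, limma unadjusted p = 0.0294, adjusted p = 0.629). Gdf15 was at 1.12, 1.23 and 1.46 in vehicle and 4.05, 1.75 and 1.57 in DRP-104 columns (0.54, interval -0.08 to 1.16, limma adjusted p = 0.629). The first DRP-104 column stood apart from the other two for Gdf15. It also had the highest summed FPKM of the fibroblast markers, 2958 against 1258 and 1001 in the other DRP-104 columns and 740 to 1215 in vehicle columns, and of the macrophage markers, 857 against 318 to 648 in the other 5 columns. Their part in the result was not tested. Adm2 differed by 0.73 (interval -0.09 to 1.55), with 4.08, 2.60 and 7.27 in vehicle and 10.7, 5.09 and 8.74 in DRP-104 columns (limma adjusted p = 0.629). Angptl6 stood at 0.412, 0.206 and 0.685 FPKM in vehicle and at 0.772, 0.619 and 0.682 in DRP-104 columns, which overlap. It passed the filter of 0.5 only through the DRP-104 mean of 0.691, beside 0.434 in vehicle, so no test of it is given. Angptl4 differed by 0.34 (interval -0.01 to 0.69, limma adjusted p = 0.629), opposite in sign to the normalized counts, with 87.1, 87.9 and 119 in vehicle and 129, 125 and 117 in DRP-104 columns. 

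In the same columns Fgf21 was at 0.0933, 0.350 and 0 FPKM in vehicle and 0.571, 0.852 and 0.464 in DRP-104 columns. These values are 2, 6 and 0 fragments against 10, 17 and 8. All 3 DRP-104 columns were above all vehicle columns. The two-sided exact permutation p of the difference in means was 0.1, the smallest that 3 against 3 allows. The summed FPKM of the islet markers ran from 323 to 1203 in DRP-104 columns and from 13.7 to 231 in vehicle columns, without overlap, and the column with the most Fgf21 had the highest sums of islet (1203) and acinar (3591) markers. The acinar sums overlapped between the groups, at 609 to 3591 in DRP-104 and 173 to 979 in vehicle columns. Vehicle column 1, at 979, had Fgf21 at 0.0933 FPKM, while DRP-104 columns 1 and 3, at 609 and 674, had 0.571 and 0.464. The pancreas is known to express Fgf21 in its acinar cells, and the part of such cells in the result was not tested.

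**Figure D5:**
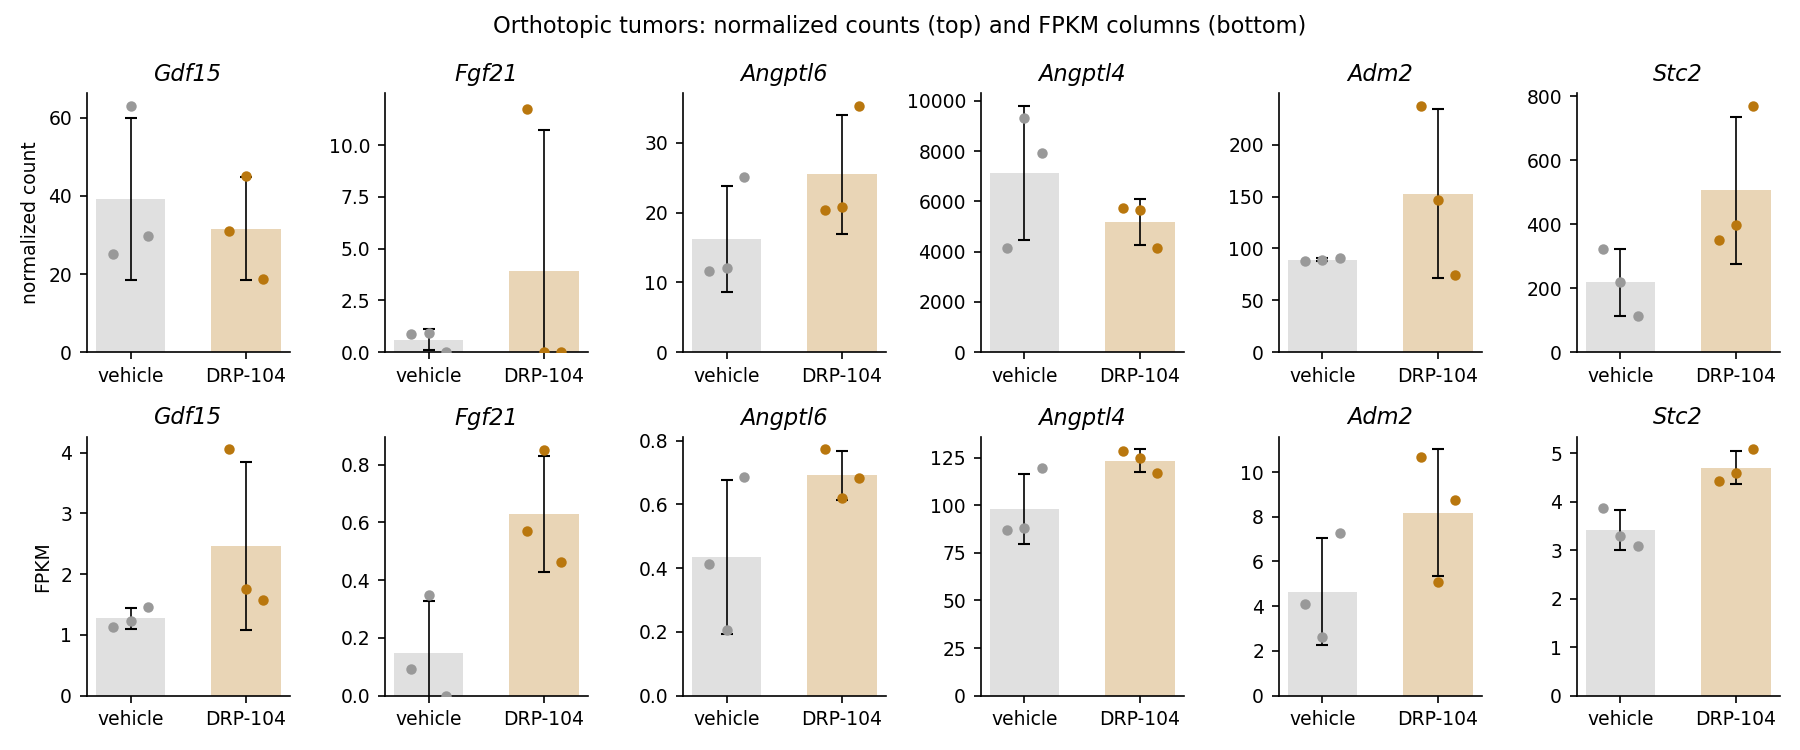
Values of the 6 genes in vehicle and DRP-104 tumors, as normalized counts (top) and in the FPKM columns (bottom), which are other libraries. Points are libraries, bars are means of 3 and error bars are SD. Stc2 does not overlap between the groups in both rows, and Angptl4 is lower on average in DRP-104 tumors in the top row and higher in the bottom row.

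Of the 13 receptor genes 9 were tested in each tumor table and none passed by limma, as was so for all 89 tested genes of the 11 lists in each table. Gfral and Calcr were at 0 in all 6 tumors of the normalized counts, and Klb averaged 7.88 ± 7.12 in DRP-104 and 7.73 ± 4.31 in vehicle tumors (n = 3 each), below the filter.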

How the data were processed

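The series holds RNA-seq of 15 samples, 3 in each of 5 groups; part of the genotype of the line is not reported here. Novogene made the libraries for the authors, aligned reads with HISAT2 and ran DESeq2; the submitters' processing notes also list CASAVA and STAR 2.5 and the build GRCm39, but gene coordinates in the FPKM table overlap the GRCm38 gene for 99.86% of 31118 genes matched by symbol, so positions are given on GRCm38. The counting tool and the use of strand are not given in the sources used here. The deposited signal in the culture and tumor tables is the gene count divided by 1 size factor per library within each table. Dividing by the worth of 1 read returned whole reads (tolerance 0.0051) for at least 99.991% of genes in each library. The authors' FPKM values times gene length likewise gave whole fragments for 100% of genes. Among genes with 1 to 20 reads, 69.6% to 72.7% of culture and 41.9% to 46.5% of tumor values were even. Libraries without molecular identifiers do not count independent molecules, so floors (3 reads) cover counting error only. Libraries of a group differed beyond sampling noise (lowest chi-square per degree of freedom 6.64).

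Tests for normalized values were run in R 4.3.3 with limma 3.58.1, with a mean-variance trend in its moderated errors; genes averaging at least 10 (or 0.5 FPKM) entered as log2(value + 1), with the 6 libraries of each comparison and no covariate, and p-values were adjusted by Benjamini-Hochberg over all genes tested. For DON against Gln-free cells the recovered reads were scaled together over the 9 culture libraries by median-of-ratios factors. The 6 genes and the lists were chosen with earlier results of these data known, so the 6 genes are tested only in the FPKM columns and described in all other comparisons, DON against Gln-free cells included. Named list genes are at most 2 risen and 2 fallen per list and comparison with control with the highest log2 fold change and a mean of at least 50, plus all receptors. Adm, Lpl, Lipg, Atf5, Creld2, Pparg, Ppard, Hif1a and Pcsk7 were named after their values were seen. Alternatives were edgeR 4.0.16, DESeq2 1.42.0, other filters, pseudocounts and scalings, and leaving out each library; edgeR on halved reads and tests on the fragments behind FPKM were chosen after seeing the data. Tests were tested on simulated data with 200 genes changed by at least 2-fold in either direction. Limma called 86% of them at the spread of the control cultures (13556 genes) and 50% at that of the vehicle tumors (15454 genes). At the tumor spread 9.09% of limma calls and 25% of DESeq2 calls were unchanged genes. Columns of the authors' own comparisons were not used.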

Additional observations from a re-analysis of the deposited data

How the results depend on the processing

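The counts of genes passing in the 3 culture comparisons stayed within 1.5 times of those reported under all alternatives. In tumors DESeq2 called 56 genes (27 higher, 29 lower) in the normalized counts and, on the fragments behind FPKM, 201 (102 higher, 99 lower), where limma and edgeR called 0 in both; of the named genes Fgf1 and Ramp3 passed by DESeq2 on the fragments; the cause was not tested. Leaving out 1 FPKM column at a time gave 0 to 1 genes: Igkv1-110 without DRP-104 column 1 and Pyy without vehicle column 1. The log2 fold changes of the 5 detected genes kept their sign under all alternatives in the comparisons of cells with control. In DON against Gln-free cells, over 17 alternatives, Angptl6 ran from 2.12 to 2.33, Angptl4 from -4.36 to -3.79, Gdf15 from 0.86 to 1.11 and Adm2 from 0.13 to 0.25, while Stc2, between -0.09 and 0.06, changed sign in 2. In the FPKM columns none of the 6 genes passed under the alternatives run, and Gdf15 ran from 0.23 to 0.97. Quantile normalization moved the median of all genes in DON against control cells from 0.02 to 0.13 and left the sign of the 5 genes as it was. A fit with a replicate block called 9237 genes in DON against Gln-free cells (9207 without it) and 0 in the normalized tumor counts. Same-numbered libraries did not deviate together (correlations -0.028, 0.001 and 0.083, and -0.274, 0.038 and -0.365). With 3 libraries in a group this cannot exclude that the numbers pair them. No paired analysis was possible for the comparisons with control cells or the FPKM columns because those columns are not tied to numbered samples. At the spread of the tumors limma recovered 50% of simulated changed genes, which limits what the tumor tables can show. Apart from Ppard, the other named genes lost 1 call in DON and 1 in Gln-free cells against control under some alternative (Ret and Klb). In DON against Gln-free cells 27 of their values were no longer past the threshold. Alternatives for Ppard are not given.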
